A study of Mus musculus with 4 samples.

Results

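The ADAM, ADAMTS and ADAMTS-like genes encode a family of metalloproteases and relatives that cut cell-surface proteins and extracellular matrix. The family was taken as every gene model whose symbol is Adam, Adamts, Adamtsl or Adamdec followed by a number and, for some, the letter a or b. This gave 58 of the 52535 gene models in the files, namely 34 in the ADAM subfamily (Adamdec1 included), 19 in the ADAMTS subfamily and 5 in the ADAMTS-like subfamily. RNA was sequenced from pancreatic duct cells of C57BL/6 mice in 2 libraries of genotype Lats1fl/fl; Lats2fl/fl; Sox9-CreER (Lats1/2 KO; KO 1 and KO 2) and in 2 wild-type libraries (WT 1 and WT 2). Lats1 and Lats2 are the kinases of the Hippo pathway that hold back YAP and TAZ, a pair of transcriptional co-activators, and Sox9-CreER is a tamoxifen-dependent Cre recombinase driven by Sox9, a gene of duct cells. Recombination is therefore possible only in Sox9-expressing cells and depends on the inducer, and the sources used here do not give the dose of inducer, the time after it, the age of the mice or the way the cells were isolated. It is also not stated whether the 2 libraries of a group came from different mice. The p-values therefore reflect library-to-library spread, which may be technical.

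ADAM proteases are mostly membrane-anchored. They release the outer parts of growth factor precursors, adhesion molecules and receptors, a step called shedding. ADAMTS proteases are secreted, carry thrombospondin repeats and cut proteoglycans, procollagens and other matrix proteins. ADAMTS-like proteins share the thrombospondin repeats but lack the protease domain, and several bind the fibrillin microfibrils of the matrix.

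The libraries held 5082636 and 5925601 counts in Lats1/2 KO and 3566387 and 4735183 counts in WT. Levels are CPM, the count as a share of the library total in units of 1e6 counts, scaled by the trimmed mean of M-values (TMM). Lats1 stood at 70.0 and 79.2 CPM in Lats1/2 KO, against 50.8 and 65.6 CPM in WT, and Lats2 at 163 and 121 CPM, against 114 and 102 CPM. Neither was lower in the libraries labelled KO (edgeR adjusted p = 0.172 and 0.127), and whole-model counts include transcripts that lose only some exons, so the labels are not checked by these values. The 13 duct markers (8 rose, 0 fell) summed to 7979 and 8416 CPM in Lats1/2 KO, against 1369 and 1600 CPM in WT. By DESeq2 9 of them rose and 1 fell. Beside this and the other marker counts here, 22.0% of all genes tested rose and 20.2% fell. Other cell types were present in both groups. Acinar markers (3 of 14 tested fell, 0 rose) summed to 167 and 3808 CPM in Lats1/2 KO, against 54947 and 97998 CPM in WT. Their median log2 change was -5.82, with -4.88 without KO 1 and -9.24 without KO 2. By DESeq2 12 of the 14 fell. Amy2a5 had 0 counts in both Lats1/2 KO libraries. Macrophage markers (13 of 13 rose) summed to 7167 and 5044 CPM, against 691 and 660 CPM in WT, and fibroblast markers (11 of 14 rose, 1 fell) to 16995 and 11401 CPM, against 3606 and 3140 CPM. Smooth muscle markers (8 of 10 fell, 1 rose, with 4 to 6 falling when any 1 library was left out) summed to 1962 and 1234 CPM, against 5171 and 4296 CPM in WT. Endothelial markers (9 of 11 fell) summed to 1038 and 925 CPM, against 2069 and 1983 CPM. Schwann and neural markers (8 of 8 fell, and 5 of them without KO 1 and also without KO 2) summed to 32.0 and 25.4 CPM, against 250 and 205 CPM in WT. T and NK cell markers (10 of 10 tested fell) summed to 78.3 and 48.9 CPM, against 1183 and 1244 CPM, and B cell markers (9 of 9 fell) to 261 and 106 CPM, against 2754 and 3076 CPM. Summed CPM in Lats1/2 KO and then WT libraries were 34.8 and 36.1 against 203 and 237 for dendritic markers, 34.8 and 18.1 against 21.2 and 19.6 for neutrophil markers, 321 and 283 against 17.3 and 11.5 for mesothelial markers, and 286 and 166 against 1161 and 2201 for islet markers. The neutrophil gene Ly6g and the NK cell gene Ncr1 had 0 counts in both Lats1/2 KO libraries. In bulk RNA, fewer cells of a type and less RNA per cell cannot be told apart.

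Family genes summed to 2687 and 2492 CPM in the Lats1/2 KO libraries, against 1060 and 1163 CPM in the WT libraries. The means were 2589 ± 138 CPM and 1112 ± 72.6 CPM (SD, n = 2), a ratio of 2.33, and the groups did not overlap. ADAM genes summed to 1034 and 1013 CPM in Lats1/2 KO, against 458 and 481 CPM in WT, a ratio of 2.18. ADAMTS genes summed to 1585 and 1423 CPM, against 553 and 634 CPM, a ratio of 2.53. ADAMTS-like genes summed to 67.6 and 55.7 CPM, against 48.9 and 48.1 CPM, a ratio of 1.27. No test was made of the difference between subfamilies.

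**Figure D1:**
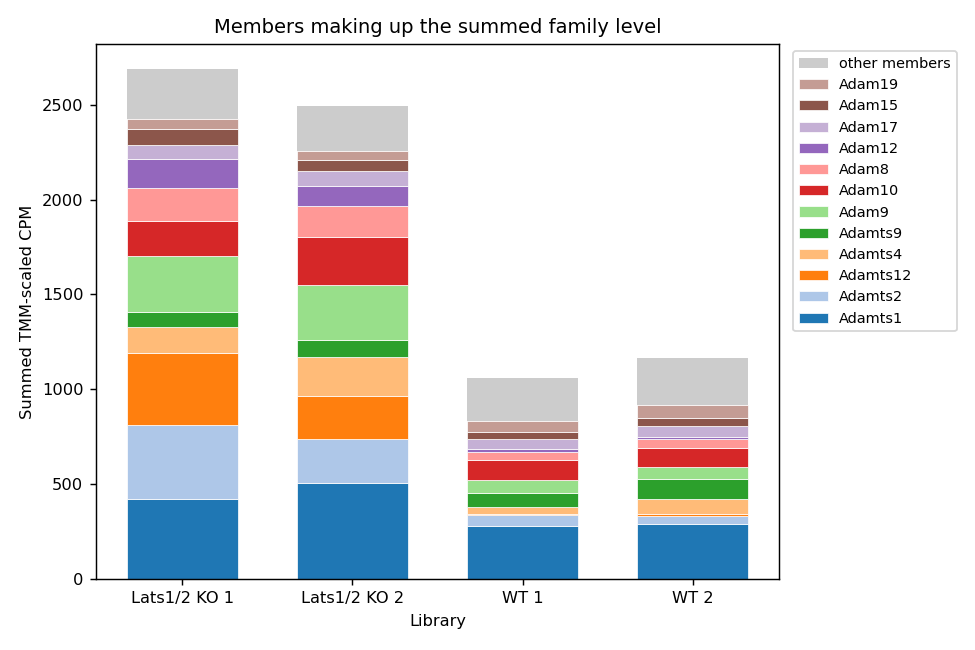
Summed TMM-scaled CPM of the family in each library (bars from 0, one bar per library, Lats1/2 KO libraries left), split by the 12 genes drawn separately and the other members in grey. The bars reach 2687 and 2492 CPM in Lats1/2 KO, against 1060 and 1163 CPM in WT, and Adamts12 and Adamts2 widen most visibly.

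Which genes made up the sum also differed. Adamts12 held 11.7% of the family's mean CPM in Lats1/2 KO, against 0.684% in WT. Adamts2 held 12.1%, against 4.59%, and Adam9 11.3%, against 6.07%. Adamts1, the gene with the largest share in both groups, held 17.9% in Lats1/2 KO, against 25.5% in WT, and Adamts9 3.31%, against 7.95%. These shares rest on CPM without correction for length, so long transcripts weigh more in them.

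After the filter on low counts 32 members were tested, 12 ADAM, 15 ADAMTS and 5 ADAMTS-like. Of these, 11 rose and 8 fell in Lats1/2 KO and 13 did not pass the threshold (edgeR's quasi-likelihood test, Benjamini-Hochberg adjusted p under 0.05). Across all 13990 genes tested, 42.2% changed, 22.0% higher and 20.2% lower, so a change in this comparison is common. Upper quartile scaling turned the split over all genes into 2339 higher and 3594 lower, against 3077 and 2832 with TMM, and the all-gene median log2 change was then -0.20. Under that scaling 11 members rose and 9 fell. The count of members that fell was 4 without KO 1, 5 without KO 2, 5 without WT 1, 4 without WT 2, and 4 by DESeq2. Of the 32, 26 were past the count minimum of the filter in each group by itself, 5 (Adam23, Adam33, Adamdec1, Adamts17 and Adamts20) only in WT, and Adamts16 in neither. The libraries of the groups did not overlap for 16 members that were higher in Lats1/2 KO and 11 that were lower, beside 37.4% and 36.8% of all genes tested (74.3% in either direction). Members that were kept through WT alone had to be lower in Lats1/2 KO, and the number that fell is no support for a direction.

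In the ADAM subfamily 5 genes rose and 5 fell of 12 tested, with a median log2 change of 0.04, and without any 1 library 2 or 3 fell. In the ADAMTS subfamily 6 rose and 3 fell of 15 tested, with a median of 0.33. Leaving out WT 2 or KO 2 gave a median of 0.72 or 0.55, and upper quartile scaling gave 0.13. In the ADAMTS-like subfamily 0 rose and 0 fell of 5 tested, with a median of 0.38, and at an unadjusted p under 0.05 edgeR called 1, while DESeq2 called 0 after adjustment. The median over all genes was -0.01. The ADAM and ADAMTS subfamilies reached log2 changes between -3.40 and 3.21 and between -4.57 and 5.30, while the ADAMTS-like genes stayed between -0.55 and 0.66. The lower ends are those of Adam23 and Adamts20, which the filter kept through WT alone, so both had to be lower. Adam33 and Adamdec1, also among the ADAM genes that fell, were kept in the same way. Of 32 tested members, 6 rose more than 4-fold (Adam8, Adam9, Adam12, Adamts2, Adamts7 and Adamts12), beside 5.23% of all genes. Adam8 and Adam9 were under 4-fold with upper quartile scaling (log2 change 1.84 and 1.92). Adam8 was also under it with a library size without acinar genes (1.97), without KO 1 (1.99) and without WT 1 (1.96).

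**Figure D2:**
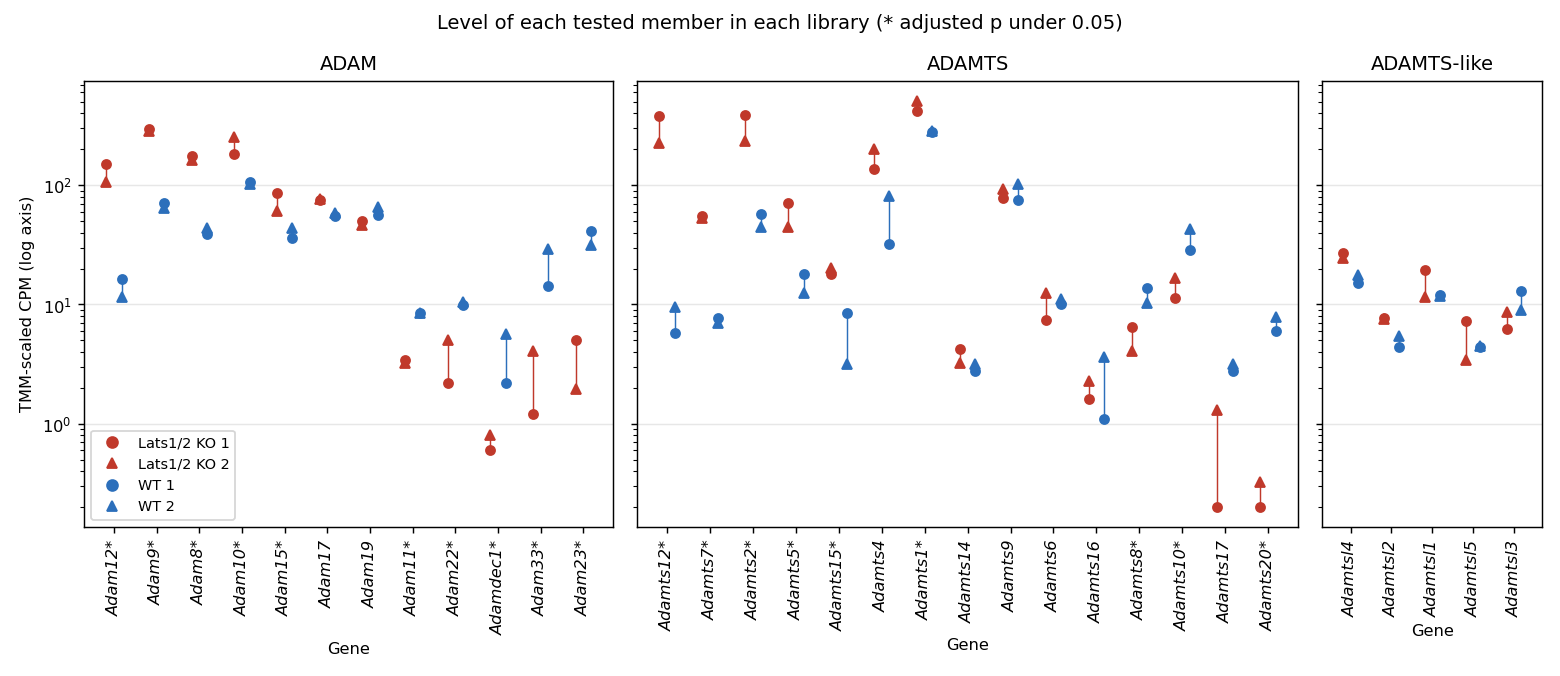
TMM-scaled CPM of the 32 tested members in each library (log axis), ordered within each subfamily by fold change, with Lats1/2 KO in red left of WT in blue, circles for replicate 1, triangles for replicate 2 and a line joining the pair of a group. The red points of Adamts12 lie at 382 and 226 CPM, the blue ones at 5.77 and 9.44 CPM, while those of Adamts9 overlap.

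Among the ADAM proteases that are catalytically active, 5 of 8 tested rose, 1 fell and 2 did not pass. Beside this and the class counts below, 22.0% of all genes tested rose and 20.2% fell. The classes were chosen with earlier results known. Adamdec1, which fell, was classed apart, and Adam33, the 1 that fell here, was kept by the filter through WT alone. Adam12, which cuts IGF-binding proteins and EGF receptor ligands and marks remodelling mesenchyme, was at 151 and 106 CPM in Lats1/2 KO, against 16.2 and 11.5 CPM in WT. It rose 9.28-fold (log2 change 3.21 ± 0.26 SE, edgeR adjusted p = 5.31e-05). Adam9 (mm10, chromosome 8, 24949611 to 25016927), a membrane protease of epithelial and other cells, was at 297 and 287 CPM in Lats1/2 KO, against 70.6 and 64.3 CPM in WT, and rose 4.33-fold (2.11 ± 0.16 SE, edgeR adjusted p = 4.25e-05). Adam8 (chromosome 7, 139978932 to 139992562), a protease prominent in myeloid cells and in pancreatic tumour cells, was at 175 and 164 CPM, against 38.7 and 44.1 CPM, and rose 4.10-fold (2.03 ± 0.17 SE, edgeR adjusted p = 6.13e-05). In all 3 genes both Lats1/2 KO libraries stood above both WT libraries. The pairs within a group lay close together for Adam9 and Adam8 and farther apart for Adam12. Duct, macrophage and fibroblast markers were also higher in the Lats1/2 KO libraries, in the sums given above, and their part in these rises was not tested.

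Adam10, the sheddase of Notch receptors and E-cadherin, was at 184 and 256 CPM in Lats1/2 KO, against 107 and 102 CPM in WT. It rose 2.10-fold (1.07 ± 0.19 SE, edgeR adjusted p = 0.00272). Adam15, an ADAM with an integrin-binding disintegrin domain, was at 86.1 and 60.5 CPM, against 36.3 and 43.6 CPM. It rose 1.83-fold (0.87 ± 0.22 SE, edgeR adjusted p = 0.0141), but did not pass without KO 1 (edgeR adjusted p = 0.0885) or without WT 1 (edgeR adjusted p = 0.0634), with adjusted p between 9.13e-05 and 0.0885 over all alternatives. Of its exon bases, 20.6% overlap an antisense gene, and the sources used here do not say whether the counting used strand.

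Adam17, the main sheddase of tumour necrosis factor and of several EGF receptor ligands, was at 75.5 and 76.2 CPM in Lats1/2 KO, against 55.5 and 58.0 CPM in WT. Its groups did not overlap, but its log2 difference of 0.42 ± 0.17 SE did not pass (edgeR adjusted p = 0.0756). Adam19, a protease that processes neuregulin, was at 50.1 and 46.3 CPM, against 55.8 and 66.3 CPM. The log2 difference was -0.34 ± 0.19 SE (edgeR adjusted p = 0.172), and passed only with upper quartile scaling (-0.54, edgeR adjusted p = 0.0462, up to 0.576 over the alternatives). Adam33, a protease of mesenchymal and smooth muscle cells, was at 1.21 and 4.05 CPM in Lats1/2 KO, against 14.3 and 29.4 CPM in WT. It fell 8.05-fold (log2 change -3.01 ± 0.58 SE, edgeR adjusted p = 0.00628), with -4.12 without KO 2 and -2.39 without WT 2. Smooth muscle markers fell in the same libraries, and their part in this was not tested.

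The 3 ADAM proteins that lack a working catalytic site and act in neural adhesion, Adam11, Adam22 and Adam23, fell. Of all genes tested 20.2% fell, and the filter kept Adam23 through WT alone. Adam23 (chromosome 1, 63445891 to 63596276), a partner of the secreted LGI proteins at synapses, was at 5.03 and 1.94 CPM in Lats1/2 KO, against 40.9 and 31.2 CPM in WT. It fell 10.5-fold (-3.40 ± 0.41 SE, edgeR adjusted p = 0.000416), with -4.19 without KO 1 and -2.80 without KO 2. Adam22, the LGI1 receptor, was at 2.21 and 5.02 CPM, against 9.89 and 10.6 CPM. It fell 2.77-fold (edgeR adjusted p = 0.0281), with a log2 change of -1.02 (edgeR adjusted p = 0.156) without KO 1, -2.16 without KO 2, and adjusted p of 0.0563 and 0.0839 without WT 1 and WT 2, and 0.101 by DESeq2. Adam11 was at 3.42 and 3.24 CPM, against 8.52 and 8.54 CPM, and fell 2.55-fold (edgeR adjusted p = 0.0226). It did not pass without any of the 4 libraries (edgeR adjusted p = 0.101, 0.124, 0.0679 and 0.0765 without KO 1, KO 2, WT 1 and WT 2) or by DESeq2 (adjusted p = 0.14). The 8 Schwann and neural markers fell beside them, and their part was not tested.

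Adamdec1, a soluble ADAM relative of macrophages and dendritic cells, was at 0.604 and 0.809 CPM in Lats1/2 KO, against 2.20 and 5.62 CPM in WT, from 8 and 33 counts. It fell 5.40-fold (log2 change -2.43, edgeR adjusted p = 0.0217), though it passed neither without KO 1, KO 2 or WT 2 (edgeR adjusted p = 0.148, 0.119 and 0.283) nor by DESeq2 (adjusted p = 0.111), and its log2 change was -1.58 without WT 2. Its fall stood beside a rise of all 13 macrophage markers and a fall of 7 of 8 dendritic cell markers.

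**Figure D3:**
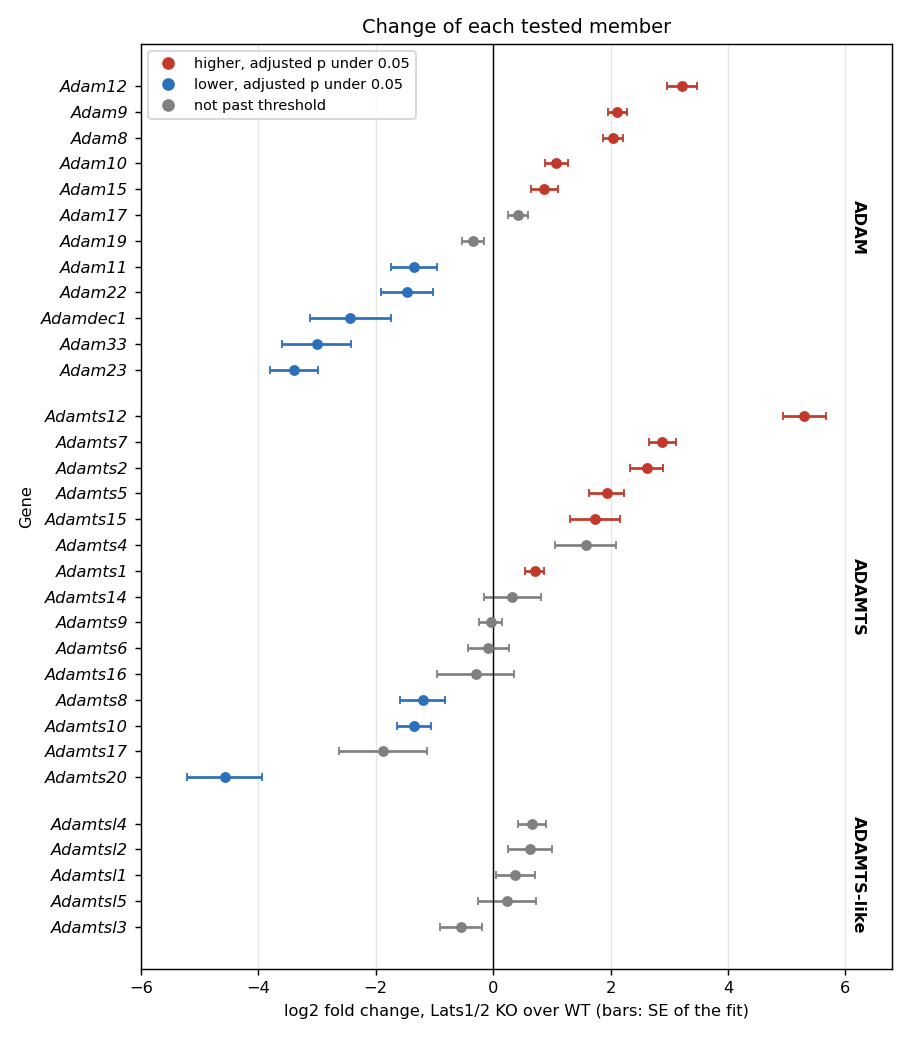
Log2 fold change, Lats1/2 KO over WT, of the 32 tested members with the standard error of the fit as bars, grouped by subfamily, with red for genes that rose, blue for genes that fell and grey for those not past the threshold. ADAM and ADAMTS genes spread widely to each side of 0, between -4.57 and 5.30, and the 5 ADAMTS-like genes lie between -0.55 and 0.66. Adam23 and Adamts20, the lowest points of their subfamilies, were kept by the filter through WT alone and had to be lower.

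Adamts12, which had the largest rise of the ADAMTS genes here and in each of the 11 alternatives, and Adamts7 are a closely related pair that cuts cartilage oligomeric matrix protein. Adamts12 (mm10, chromosome 15, 11064790 to 11346867) was at 382 and 226 CPM in Lats1/2 KO, against 5.77 and 9.44 CPM in WT. It rose 39.4-fold (log2 change 5.30 ± 0.37 SE, edgeR adjusted p = 0.000103), from 3296 counts over both Lats1/2 KO libraries and 63 over both WT libraries. Adamts7 (chromosome 9, 90163069 to 90208071) was at 54.7 and 53.4 CPM, against 7.69 and 6.97 CPM, and rose 7.37-fold (2.88 ± 0.23 SE, edgeR adjusted p = 4.96e-05). Both genes passed the threshold in each of the 11 alternative analyses, and Adamts12 stayed between 4.88 and 5.72 on the log2 scale.

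The procollagen N-proteinases trim the amino-terminal propeptide of fibrillar collagens. Adamts2 (chromosome 11, 50602084 to 50807573), which does this for types I and III in skin and other tissue, was at 391 and 234 CPM in Lats1/2 KO, against 57.4 and 44.5 CPM in WT. It rose 6.13-fold (2.62 ± 0.28 SE, edgeR adjusted p = 0.000418). Adamts14 was at 4.23 and 3.24 CPM, against 2.75 and 3.15 CPM, and its log2 difference of 0.33 ± 0.48 SE did not pass (edgeR adjusted p = 0.617). Adamts3, which acts on the lymphatic factor VEGF-C, had 23 counts in Lats1/2 KO and 9 in WT and was not tested. Fibroblast markers were also higher in Lats1/2 KO, as given above. The part of fibroblasts in these rises was not tested.

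Of 7 proteoglycan-cleaving ADAMTS genes, which act on versican and aggrecan, 3 rose, 2 fell and 2 did not pass. Of all genes tested 22.0% rose and 20.2% fell. Adamts20, 1 of the 2 that fell, was kept by the filter through WT alone, so it had to be lower. Adamts1 (chromosome 16, 85793827 to 85803113), an inducible gene that also binds VEGF, was at 419 and 506 CPM in Lats1/2 KO, against 281 and 287 CPM in WT. It rose 1.63-fold (0.70 ± 0.17 SE, edgeR adjusted p = 0.0097), but did not pass without WT 1 or without WT 2 (edgeR adjusted p = 0.0815 and 0.0797), with adjusted p down to 9.09e-05 over the alternatives. Adamts5, an aggrecanase, was at 70.4 and 44.8 CPM, against 17.9 and 12.4 CPM, and rose 3.82-fold (1.93 ± 0.30 SE, edgeR adjusted p = 0.00119). Adamts15, a versicanase, was at 18.1 and 20.1 CPM, against 8.52 and 3.15 CPM, and rose 3.33-fold (1.74 ± 0.43 SE, edgeR adjusted p = 0.0122). Without KO 1 or KO 2 Adamts15 did not pass (edgeR adjusted p = 0.0725 and 0.0874), and its log2 change was 2.61 without WT 1.

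Adamts4, an aggrecanase, was at 138 and 202 CPM in Lats1/2 KO, against 32.4 and 81.4 CPM in WT. The groups did not overlap, but the WT libraries differed widely from each other and the log2 difference of 1.57 ± 0.52 SE did not pass (edgeR adjusted p = 0.0847). It did pass in 5 of the 11 alternatives, among them without WT 1 (1.08, edgeR adjusted p = 0.0164), without WT 2 (2.40, edgeR adjusted p = 0.000344), without a filter on low counts (edgeR adjusted p = 0.0058) and by DESeq2 (adjusted p = 0.0497), within a range of 1.45e-10 to 0.403 over the alternatives. Adamts9, a versicanase with a GON domain, was at 77.9 and 93.6 CPM, against 74.7 and 102 CPM, and the groups overlapped (log2 difference -0.05 ± 0.20 SE, edgeR adjusted p = 0.878). That difference changed sign in 4 of the 11 alternatives, between -0.24 and 0.20.

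Adamts20, the other GON-domain protease, known in mice for its part in melanoblast survival, was at 0.201 and 0.324 CPM in Lats1/2 KO, against 6.05 and 7.87 CPM in WT. It fell (log2 change -4.57 ± 0.64 SE, edgeR adjusted p = 0.000751). It had 3 counts in Lats1/2 KO and 57 in WT, so that the pooled ratio of Lats1/2 KO to WT was 0.0382 (95% exact binomial interval 0.00765 to 0.117, counting error only). Adamts8, an anti-angiogenic ADAMTS of lung and vessels, was at 6.44 and 4.05 CPM, against 13.7 and 10.3 CPM, and fell 2.30-fold (edgeR adjusted p = 0.0328). It did not pass without KO 1, KO 2 or WT 1 (edgeR adjusted p = 0.0549, 0.205 and 0.146) or by DESeq2 (adjusted p = 0.143), and 10.6% of its exon bases overlap an antisense gene. Endothelial markers fell in the same libraries, and their part was not tested.

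Among the remaining ADAMTS genes 1 of 4 tested fell, beside 20.2% of all genes tested. Adamts10, which binds fibrillin microfibrils, was at 11.3 and 16.7 CPM in Lats1/2 KO, against 28.6 and 42.9 CPM in WT. It fell 2.55-fold (-1.35 ± 0.30 SE, edgeR adjusted p = 0.00678), and without WT 2 the adjusted p was 0.0523. Adamts6, its close relative, was at 7.45 and 12.5 CPM, against 10.2 and 11 CPM, and the groups overlapped (-0.08 ± 0.35 SE, edgeR adjusted p = 0.874), with a log2 difference of 0.24 without KO 1. Adamts17 differed by -1.87 ± 0.75 SE on the log2 scale without passing (edgeR adjusted p = 0.0745), from 9 counts in Lats1/2 KO and 24 in WT. Without KO 1 this Adamts17 value was -1.17 and without KO 2 it was -3.67, neither past the threshold. Adamts16 differed by -0.30 ± 0.66 SE (edgeR adjusted p = 0.746), and its sign turned in 1 of the 11 alternatives.

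Promoter sequences were at hand for 31 of the 58 members (RefSeq, GRCm38.p6, 250 bases before to 50 after the start site), 9 of them among the genes that changed. The study's title names YAP and AP-1, and YAP reaches DNA through TEAD factors. The TEAD core CATTCC was found, on either strand, in 3 of the 31 members, against 14.7% of all 32851 promoter windows. Here and below a member counts if any of its windows matches, while the share over all is per window, so the units differ. The AP-1 motif TGANTCA was found in 5 of 31, against 7.81% of all windows. Neither stood in the windows of the 9 members that changed, and distal elements lie outside them. The TATA box TATAAA stood in 5 of 31 members, against 13.6% of all windows, and the GC box GGGCGG in 17 of 31, against 35.7%. Windows are shown for the gene with the largest rise, for the procollagen N-proteinase that rose and for the gene with the highest level, 5′ to 3′ on the strand of the gene, with matches to TATAAA or GGGCGG on either strand in capitals. The Adamts12 window (chr15:11064523-11064822, plus strand) holds none of the 4 motifs, the Adamts2 window (chr11:50601835-50602134, plus strand) holds 5 GC boxes, and the Adamts1 window (chr16:85803064-85803363, minus strand) holds 3 GC boxes and a TATA box whose first base lies at -32 from the start site.
Adamts12: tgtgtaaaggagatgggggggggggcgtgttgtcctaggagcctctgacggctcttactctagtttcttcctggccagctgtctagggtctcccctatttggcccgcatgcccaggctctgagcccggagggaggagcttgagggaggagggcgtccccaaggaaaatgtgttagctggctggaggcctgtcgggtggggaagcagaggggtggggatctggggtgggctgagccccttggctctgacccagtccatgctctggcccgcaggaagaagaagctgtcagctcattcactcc
Adamts2: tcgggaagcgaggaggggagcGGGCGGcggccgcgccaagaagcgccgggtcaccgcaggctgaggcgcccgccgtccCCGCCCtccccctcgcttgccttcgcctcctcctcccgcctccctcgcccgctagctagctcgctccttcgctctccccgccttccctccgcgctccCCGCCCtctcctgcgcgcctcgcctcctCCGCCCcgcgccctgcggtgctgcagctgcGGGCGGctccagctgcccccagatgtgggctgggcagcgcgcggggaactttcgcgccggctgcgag
Adamts1: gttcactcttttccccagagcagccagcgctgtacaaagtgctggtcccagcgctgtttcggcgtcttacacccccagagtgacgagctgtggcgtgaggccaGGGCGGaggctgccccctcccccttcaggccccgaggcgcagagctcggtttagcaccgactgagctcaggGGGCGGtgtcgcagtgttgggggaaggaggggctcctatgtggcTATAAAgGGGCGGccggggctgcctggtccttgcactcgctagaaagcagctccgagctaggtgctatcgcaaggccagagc

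No ADAMTS-like gene passed the threshold. Adamtsl4, which binds fibrillin-1 in the eye's zonule and elsewhere, was at 27.0 and 24.6 CPM in Lats1/2 KO, against 15.1 and 17.5 CPM in WT. Its log2 difference of 0.66 ± 0.24 SE did not pass (edgeR adjusted p = 0.054, and 0.0378 to 0.201 over the alternatives). Adamtsl1, a secreted matrix protein, was at 19.5 and 11.5 CPM, against 12.1 and 11.7 CPM, and overlapped (0.38 ± 0.33 SE, edgeR adjusted p = 0.395). Adamtsl2, a microfibril protein that binds LTBP1, was at 7.65 and 7.61 CPM, against 4.40 and 5.39 CPM (0.63 ± 0.38 SE, edgeR adjusted p = 0.209). Adamtsl3 stood at 6.24 and 8.58 CPM, against 12.9 and 8.99 CPM (-0.55 ± 0.36 SE, edgeR adjusted p = 0.25), and Adamtsl5 at 7.24 and 3.40 CPM, against 4.40 and 4.50 CPM (0.24 ± 0.49 SE, edgeR adjusted p = 0.726). Without KO 1 the estimates of Adamtsl1 and Adamtsl5 turned to -0.0443 and -0.38. Their standard errors ran from 0.24 to 0.49 on the log2 scale, so these values do not show that the genes were the same in both groups.

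To compare genes with each other, CPM was divided by the length of the merged exons in kilobases. For Adamts12 and Adamts5 the positions in the files differ from the annotation that gave the lengths, so their lengths may not match the models counted. Adamts1 led in both groups, at 87.2 CPM per kb in Lats1/2 KO, against 53.5 CPM per kb in WT. In Lats1/2 KO it was followed by Adam9 at 71.0, Adam10 at 44.7, Adam8 at 36.6, Adamts4 at 35.4, Adamts2 at 33.4 and Adamts12 at 27.8 CPM per kb. From Adam10 to Adamts12, each neighbouring pair in this order overlapped in its library values. In WT the order after Adamts1 was Adam10 at 21.3, Adam9 at 16.4 and Adamts4 at 11.8 CPM per kb, of which Adam9 and Adamts4 overlapped. Adamts12 ranked 7 of 32 tested members in Lats1/2 KO, against 27 in WT, Adam12 ranked 8, against 21, and Adam33 ranked 26, against 12.

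**Figure D4:**
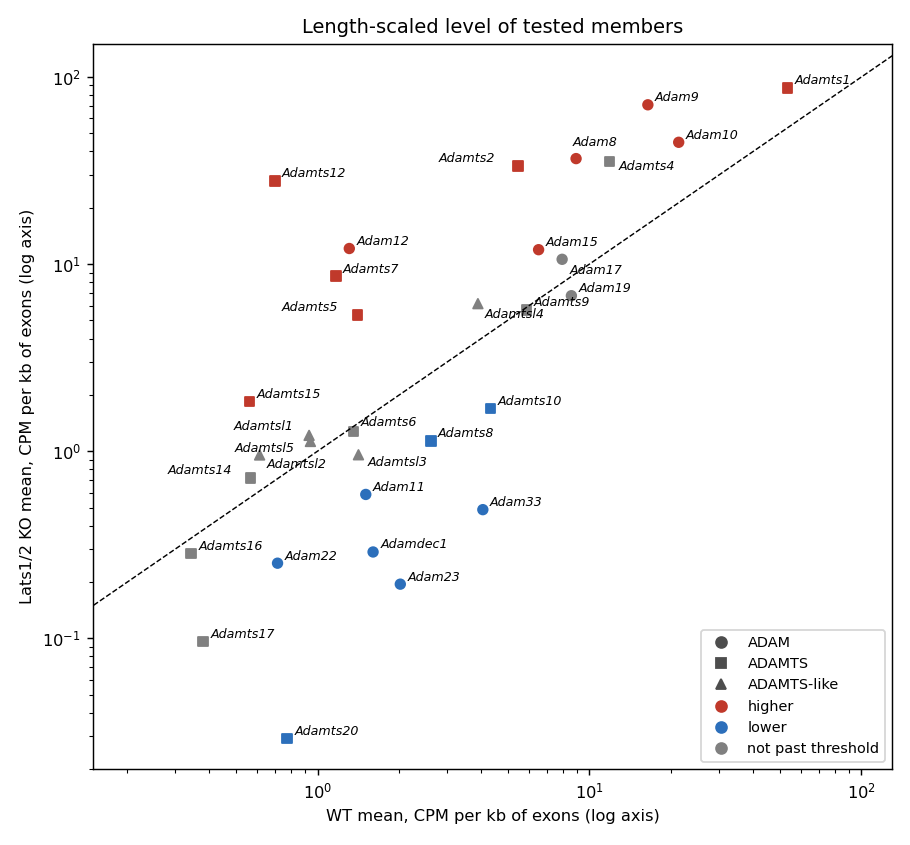
Mean level of the 32 tested members in Lats1/2 KO (vertical) against WT (horizontal), in CPM per kb of merged exons on log axes, with the dashed line of equal levels. Circles are ADAM, squares ADAMTS and triangles ADAMTS-like genes. Adamts1 lies at the top right (87.2 and 53.5 CPM per kb) and Adamts12 farthest above the line (27.8 and 0.696 CPM per kb).

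The other 26 members had too few counts to be tested, and 12 of them, all ADAM genes, had 0 counts in all 4 libraries. These are Adam1b, Adam2, Adam7, Adam18, Adam20, Adam24, Adam25, Adam26a, Adam26b, Adam29, Adam34 and Adam39, most of them known from the testis or epididymis. A count of 0 in a library allows up to 0.604 and 0.486 CPM in KO 1 and KO 2, against 0.824 and 0.674 CPM in WT 1 and WT 2 (3 counts, counting error only). The other 14 had at most 12 counts in any library, namely Adam1a, Adam3, Adam4, Adam5, Adam6a, Adam6b, Adam21, Adam28, Adam30, Adam32, Adamts3, Adamts13, Adamts18 and Adamts19. Adamts13, which cleaves von Willebrand factor, had 1 count in Lats1/2 KO and 14 in WT, a pooled ratio of 0.0518 (95% exact binomial interval 0.00123 to 0.341). Counts of Adam1a are uncertain, since other genes on the same strand share its exon bases in GENCODE M21. The gene model Gm42878 shares 63.7% of them and Mapkapk5 24%. Adam1a has 7508 exon bases in that annotation, while the Adam1a model in the files spans 3496 bases, so the shares may differ for the model counted. The paralog pairs Adam6a and Adam6b, Adam26a and Adam26b, and Adam1a and Adam1b may share reads.

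Genes for enzymes that activate these proteases and for proteins that hold them in check were among those that rose in Lats1/2 KO. Beside the counts in these lists and those that follow, 22.0% of all genes tested rose and 20.2% fell. Of 4 proprotein convertases, which remove the inhibitory prodomain of ADAM and ADAMTS proteins, 2 rose and 0 fell, or 1 with upper quartile scaling (median log2 change 1.37, against -0.01 over all genes). Pcsk5 was at 63.4 and 57.5 CPM in Lats1/2 KO, against 5.77 and 8.32 CPM in WT, and rose 8.48-fold (edgeR adjusted p = 5.8e-05). Furin was at 275 and 394 CPM, against 48.9 and 56.0 CPM, and rose 6.38-fold (edgeR adjusted p = 5.28e-05). Of 3 partners that carry ADAM17 to the cell surface, 2 rose and 0 fell, although the third, Frmd8, also fell with upper quartile scaling and with a library size without acinar genes (edgeR adjusted p = 0.0244 and 0.0465). The iRhom gene Rhbdf2 was at 117 and 146 CPM, against 30.0 and 52.1 CPM (3.18-fold, edgeR adjusted p = 0.00239), and Rhbdf1 at 57.0 and 72.4 CPM, against 26.1 and 29.9 CPM (2.31-fold, edgeR adjusted p = 0.00233). The ADAM17 transcript itself did not pass, as given above.

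The TspanC8 tetraspanins, which escort ADAM10, had 0 of 6 members past the threshold upward and 2 downward (median -0.21). Tspan10, 1 of the 2, was kept by the filter through WT alone, so it had to be lower. Tspan33, an escort found in red cell and B cell lineages among others, was at 2.82 and 3.88 CPM in Lats1/2 KO, against 11.3 and 14.8 CPM in WT, and fell 3.85-fold (edgeR adjusted p = 0.00388). Tspan10 had 4 counts in Lats1/2 KO and 27 in WT and fell with an edgeR adjusted p of 0.0327, but did not pass without KO 2 (edgeR adjusted p = 0.215) or by DESeq2 (adjusted p = 0.129), and its log2 change of -3.08 was -6.96 without KO 1, where KO 2 has 0 counts. Without KO 2 only 1 of the 6 fell, and without WT 2 only 1 of the 5 then tested, with a median of 0.26.

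Of 5 inhibitors, the TIMPs and RECK, 3 rose and 0 fell (median 1.10), although 1 also fell without WT 2 and with upper quartile scaling. Timp1, a broad metalloprotease inhibitor, was at 97.8 and 94.2 CPM in Lats1/2 KO, against 3.02 and 3.82 CPM in WT, and rose 27.6-fold (edgeR adjusted p = 1.18e-05). Timp2 was at 554 and 469 CPM, against 237 and 190 CPM (2.40-fold, edgeR adjusted p = 0.000883). Timp3, the matrix-bound inhibitor of ADAM17 and of the aggrecanases, was at 413 and 414 CPM, against 215 and 172 CPM (2.14-fold, edgeR adjusted p = 0.00125). Rises of proteases and of inhibitors stood in the same libraries.

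Of 31 tested membrane proteins known to be shed by ADAM proteases, 20 rose and 3 fell (median 1.34, against -0.01 over all genes). The shares over all genes tested were 22.0% higher and 20.2% lower. With upper quartile scaling 17 of the 31 rose and 4 fell. Ereg, an EGF receptor ligand precursor, was at 44.1 and 44.2 CPM in Lats1/2 KO, against 0.550 and 0.674 CPM in WT, and rose 68.6-fold (edgeR adjusted p = 1.51e-05). It had 492 counts in Lats1/2 KO and only 5 in WT, so the size of this fold is imprecise. The filter kept Ereg through Lats1/2 KO alone, so it had to be higher. Sdc1, a cell-surface proteoglycan, was at 373 and 470 CPM, against 58.5 and 51.9 CPM (7.63-fold, edgeR adjusted p = 2.03e-05). Egf fell 11.9-fold (edgeR adjusted p = 0.00481), at 0.201 and 1.13 CPM, against 5.22 and 11.9 CPM. Its log2 change of -3.57 became -2.89 without KO 1, -5.20 without KO 2 and -2.85 without WT 2. The filter kept Egf through WT alone, so it had to be lower. Ereg and Egf are counted among the 20 and the 3, and neither adds support for a direction. Transcript levels of substrates say nothing of cleavage, which was not measured.

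Of 15 tested matrix proteins that ADAMTS proteases cut or act beside, 12 rose and 1 fell (median 2.51). The shares over all genes tested were 22.0% higher and 20.2% lower. Lox, a collagen crosslinking enzyme, was at 619 and 528 CPM in Lats1/2 KO, against 10.7 and 13.7 CPM in WT (46.6-fold, edgeR adjusted p = 1.11e-05), and fibronectin (Fn1) at 10836 and 8231 CPM, against 820.0 and 508 CPM (14.4-fold, edgeR adjusted p = 5.21e-05). Vwf, the substrate of ADAMTS13, was at 176 and 133 CPM, against 237 and 234 CPM, and fell 1.52-fold (edgeR adjusted p = 0.0258), but not past the threshold without KO 2, WT 1 or WT 2 (edgeR adjusted p = 0.121, 0.0977 and 0.0873). Of 11 tested microfibril genes, the partners of ADAMTS-like proteins, 9 rose and 0 fell (median 1.84). Mfap5 was at 66.6 and 65.6 CPM, against 6.05 and 4.05 CPM (13.2-fold, edgeR adjusted p = 2.94e-05), and Fbn2, a fibrillin, at 205 and 187 CPM, against 11 and 20.7 CPM (12.3-fold, edgeR adjusted p = 7.27e-05). These partner genes rose in libraries where 0 of the 5 ADAMTS-like genes passed. Thsd4, itself a relative of the ADAMTS-like genes and described at the end, is among the 9 that rose. Partners and ADAMTS-like genes are therefore not fully separate here. The fibroblast marker sum was higher in the same libraries, and its part was not tested. It is not a separate reading, since the lists share genes. Col1a1, Col1a2, Col3a1 and Dcn are in both the substrate list and the fibroblast markers. Mfap5 is both a partner gene and a fibroblast marker, and Vwf both a substrate and an endothelial marker.

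Thrombospondin repeats need O-fucose and glucose for secretion. Of 4 glycosylation genes 2 rose and 1 fell (median 0.39). B3glct, the glucosyltransferase, was at 19.9 and 23.3 CPM in Lats1/2 KO, against 10.2 and 8.99 CPM in WT (2.26-fold, edgeR adjusted p = 0.00927), and Pofut2, the fucosyltransferase, at 77.7 and 63.6 CPM, against 42.9 and 44.3 CPM (1.62-fold, edgeR adjusted p = 0.0176). Dpy19l3, a C-mannosyltransferase, was at 10.9 and 10.4 CPM, against 22.5 and 18.7 CPM, and fell 1.94-fold (edgeR adjusted p = 0.022). B3glct did not pass without KO 2 or WT 2 (edgeR adjusted p = 0.0651 and 0.0503), Pofut2 without KO 1, WT 1 or WT 2 (0.093, 0.0665 and 0.0619), and Dpy19l3 without KO 1, KO 2 or WT 1 (0.0818, 0.104 and 0.12). Left-out libraries gave 0 or 1 rises and 0 or 1 falls in this list.

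**Figure D5:**
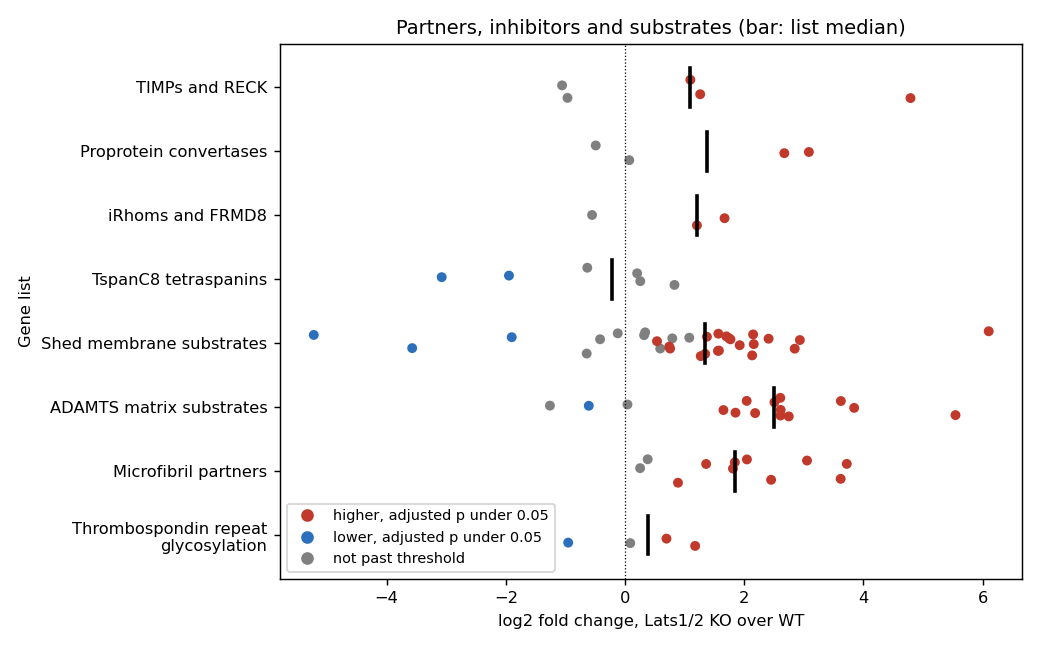
Log2 fold change, Lats1/2 KO over WT, of the tested partners, inhibitors and substrates of the family, with 1 point per gene, coloured as rose (red), fell (blue) or not past the threshold (grey), and a black bar at the median of each list. Medians run from -0.21 for the TspanC8 tetraspanins to 2.51 for the ADAMTS matrix substrates. The points are spread vertically only to separate them.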

How the data were processed

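The files deposited by the authors hold raw counts per gene model, with 1 file for each library. The submitters' processing notes name TopHat, edgeR and the build mm10, with no version of either tool. How reads were assigned to genes (program, annotation, strand, multiply mapped reads) is not given in the sources used here. Per the labels' protocols, 1 µg of total RNA went into strand-preserving SMARTer libraries. Gene positions come from the files, with the start raised by 1, and equalled those of GENCODE M21 for 54 of 58 members. Exon lengths and overlaps come from that annotation.

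Low counts were removed with filterByExpr. The 13990 genes left were normalised by TMM and compared in R 4.3.3 by edgeR 4.0.16, using its robust quasi-likelihood fit and glmQLFTest. The model held genotype alone and had 2 residual degrees of freedom. Fold changes are Lats1/2 KO over WT. The SE is the absolute log2 change divided by the square root of the quasi-likelihood F. Adjusted p-values are Benjamini-Hochberg values over all genes tested. DESeq2 1.42.0, 3 other scalings of the same counts, a library size without acinar genes, no filter, a replicate block and the removal of each library in turn were the alternatives.

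The members, the gene lists and the classes by function were chosen with earlier results of these data known. Every tested member is named, and of each partner list up to 4 genes, the 2 largest rises and the 2 largest falls past the threshold, with Timp3 added after its values were seen. A further gene that this rule takes is not reported here. The members' library values were given for those that changed or averaged at least 10 CPM in a group, and for some lower ones. Libraries of a group differed by more than sampling noise (chi-square per degree of freedom of 20.0 in Lats1/2 KO and 20.1 in WT).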

Additional observations from a re-analysis of the deposited data

How the results depend on the processing

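Of the 19 members that changed, 11 did so in each of the 11 alternatives (Adam8, Adam9, Adam10, Adam12, Adam23, Adam33, Adamts2, Adamts5, Adamts7, Adamts12 and Adamts20). Over 352 values of single members, 318 kept their call, 24 lost it, 10 gained it and 0 called values reversed. Estimates of Adamts6, Adamts9, Adamts16, Adamtsl1 and Adamtsl5, which did not pass, changed sign in at least 1 alternative. DESeq2 called 4 members lower, 2 of them ADAM genes. Leaving out 1 library gave 4 to 5 members lower, among them 2 to 3 ADAM genes. In the ADAMTS-like subfamily 1 gene (Adamtsl4) rose with library size alone, without a filter and with the replicate block. The ADAM median of 0.04 was -0.16 with upper quartile scaling, which moved the median of all genes to -0.20, and -0.0243 with a library size without acinar genes, and it ran from -0.0221 to 0.12 when 1 library was left out. The ADAMTS-like median ran from -0.0443 to 0.73 in the same way. The cause of these sign changes was not tested.

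Replicate numbers are shared by the groups, but KO 1 and WT 1 deviated from their group means with a correlation of 0.04 across genes, so the numbers are not taken as pairs. With the replicate block 13 members rose and 9 fell, and 6656 genes changed, against 5909. Under the block Adamts4 (log2 change 1.68, edgeR adjusted p = 1.45e-10), Adamts17 (edgeR adjusted p = 0.041) and Adamtsl4 (edgeR adjusted p = 0.0489) also passed, and the partner genes Reck and Frmd8 also fell (edgeR adjusted p = 0.0175 and 0.0331). Precision is limited by 2 libraries a group and by counts under about 10 in the lowest members.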

Other observations

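Among pairs of members that lie next to each other in the genome, 2 had both genes tested. Adamts15 and Adamts8 lie 20.1 kb apart on chromosome 9, on opposite strands, and Adamts15 stood at 18.1 and 20.1 CPM in Lats1/2 KO, against 8.52 and 3.15 CPM in WT, while Adamts8 stood at 6.44 and 4.05 CPM, against 13.7 and 10.3 CPM. Adamts1 and Adamts5 lie 55.1 kb apart on chromosome 16, on the same strand, and both rose. Adam9 lies 0.807 kb from Adam32 in a row of ADAM genes on chromosome 8 (Adam18, Adam3, Adam5, Adam32 and Adam9). Adam9 had 1478 and 1771 counts in Lats1/2 KO and 257 and 286 in WT. Its neighbour Adam32 had 1 and 3 counts in Lats1/2 KO and 0 in both WT libraries. Adamdec1 lies 23.9 kb from Adam28 on chromosome 14, and Adam28 had 6 counts in Lats1/2 KO and 5 in WT.

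Thsd4 (also known as ADAMTSL6, a microfibril protein) is a relative of the ADAMTS-like genes that the symbol rule does not take. It is counted in the list of microfibril genes above, and was at 45.9 and 37.7 CPM in Lats1/2 KO, against 16.8 and 28.1 CPM in WT. It rose 1.85-fold (edgeR adjusted p = 0.0306), but did not pass without KO 1, KO 2 or WT 1 (edgeR adjusted p = 0.148, 0.0554 and 0.147) or with upper quartile scaling (edgeR adjusted p = 0.0714).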
